A study of Caenorhabditis elegans with 2 samples.

Results

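Of 29973 nuclear candidate regions called on 2 pooled ELT-3 ChIP-seq libraries of Caenorhabditis elegans, 1322 are the subject of this report. They ranked below the submitters' thresholded peaks in pooled signal and had a summit, the position of highest signal, close by in each library's list. They were chosen by measured values: nuclear candidates were ranked by pooled signal, those ranked after the first 2940, down to rank 10000, and absent from the thresholded list were taken, and a summit was required within 100 bp in both library lists. The ranks held 7060 candidates, so 1322 of them, or 18.7%, are the weak shared regions described here. The other 5738 candidates of the same ranks comprised 5259 with a replicate 1 summit only, 214 with a replicate 3 summit only and 265 with neither. The stronger counterpart used for comparison was the set of 1161 thresholded peaks, of 2916 on nuclear chromosomes, that met the same distance rule. The weakest of these 2916 had rank 2916, so on nuclear chromosomes the thresholded list was a cut on pooled signal. Weak and thresholded regions are thus set apart by pooled signal. Pooled signal, the library signals and the distances between summits chose the regions, so these values are given as a description without a test. Sequence and gene annotation were not used in the choice, and the tests concern these alone.

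ChIP-seq recovers and sequences DNA bound to a protein. The libraries came from whole first-stage (L1) larvae of mixed sex of strain OP75, which carries the unc-119(ed3) allele and the transgene wgIs75. The labels note for replicate 3 that the tag on ELT-3 is GFP-FLAG at its C terminus. Both libraries, biological replicates 1 and 3, belong to 1 group, so there is no genotype, stage or treatment to compare, and the labels name no untagged strain among the samples. The antibody field names elt-3 and the description names the eGFP fusion, so the labels do not settle which the antibody bound. The recorded source of the worms differed between the replicates. A fragment size range of 150 to 350, with no unit, is recorded for replicate 1, and microtip sonication for replicate 3. The lists carry no read counts, so the depth is unknown. Regions of the same libraries are not replicates of the experiment, and every interval and p-value below speaks of regions in these libraries only.

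ELT-3 is a transcription factor of the GATA family that acts in the epidermis, the tissue that secretes the collagenous cuticle and replaces it at each molt. GATA factors bind DNA through zinc fingers and recognise WGATAR, in which W is A or T and R is A or G. Many proteins bind chromatin at open promoters and enhancers, so a candidate region can hold the motif of the tagged factor or lack it.

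The following windows, which reach 50 bp to either side of the pooled summit and were read from the RefSeq sequence of build ce11 on the plus strand, 5′ to 3′, show the range of sequence under these weak summits. Capitals mark WGATAR, searched as AGATAA or AGATAG or TGATAA or TGATAG and on the other strand as their reverse complements, and overlapping matches run together. Of windows of this length placed every 1000 bp along the nuclear genome, 19.9% held at least 1 match, and of those centred on coding gene starts, 22.6%. Windows were taken from chromosomes II to V and X only. The first 5 are the weak shared regions of highest pooled signal there among those with 3 or more matches. They lie 3502 bp upstream of C49F8.1, within ttr-30 in exonic sequence that is not coding, 3751 bp upstream of fozi-1, within R57.2 in such sequence as well, and 131 bp upstream of tald-1, the gene of a transaldolase, in an exon of F55F10.1 that is not coding.
chrX:13368449-13368549: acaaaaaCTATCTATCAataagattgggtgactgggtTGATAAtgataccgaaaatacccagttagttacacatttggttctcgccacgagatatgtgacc
chrX:7331694-7331794: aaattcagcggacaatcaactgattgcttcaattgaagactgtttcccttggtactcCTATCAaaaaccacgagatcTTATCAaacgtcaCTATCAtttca
chrIII:9277979-9278079: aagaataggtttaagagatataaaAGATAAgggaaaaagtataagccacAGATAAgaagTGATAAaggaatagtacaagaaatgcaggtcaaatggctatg
chrX:299233-299333: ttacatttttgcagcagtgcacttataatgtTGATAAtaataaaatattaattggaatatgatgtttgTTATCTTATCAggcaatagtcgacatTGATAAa
chrIV:4386470-4386570: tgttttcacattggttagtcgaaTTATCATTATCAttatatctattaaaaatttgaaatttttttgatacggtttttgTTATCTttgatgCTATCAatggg

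Such windows were rare: 16 of the 1322 regions, or 1.21%, held 3 or more matches. The next 4 windows are those of highest pooled signal on chromosomes II to V and X that held a match and lay at the start of a gene from the epidermal lists. All 4 are intergenic: 518 bp upstream of let-413, a Scribble-type protein of epithelial junctions, 410 bp upstream of apl-1, an amyloid-precursor-like protein needed for molting, 149 bp upstream of the cuticle collagen col-184, and 21 bp upstream of mlt-4, an ankyrin-repeat protein needed for molting.
let-413, chrV:7978244-7978344: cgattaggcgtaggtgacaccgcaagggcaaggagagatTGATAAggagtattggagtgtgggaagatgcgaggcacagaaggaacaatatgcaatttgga
apl-1, chrX:5117226-5117326: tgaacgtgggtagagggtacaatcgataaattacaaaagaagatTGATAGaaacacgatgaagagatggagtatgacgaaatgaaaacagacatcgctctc
col-184, chrX:13469256-13469356: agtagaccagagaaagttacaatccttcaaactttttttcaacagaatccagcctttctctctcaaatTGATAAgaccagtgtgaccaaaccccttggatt
mlt-4, chrV:20289388-20289488: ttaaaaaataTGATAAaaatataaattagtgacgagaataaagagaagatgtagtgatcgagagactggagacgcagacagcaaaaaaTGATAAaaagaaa

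The last 3 windows are those of highest pooled signal on chromosomes II to V and X at a coding gene start without a match, the more common case. They lie 84 bp upstream of C11D2.4, 284 bp upstream of rps-8, a protein of the small ribosomal subunit, and 175 bp upstream of T24H10.1, where the start of clh-5, a chloride channel of the CLC family, lies 591 bp away. Runs of alternating GA or CT, met again in the count of short words below, stand in the rps-8 window. Such runs also stand in the let-413, col-184 and mlt-4 windows above, which hold WGATAR.
C11D2.4, chrIV:6156994-6157094: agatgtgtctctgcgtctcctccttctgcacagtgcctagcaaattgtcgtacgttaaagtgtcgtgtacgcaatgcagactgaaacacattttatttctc
rps-8, chrIV:7314094-7314194: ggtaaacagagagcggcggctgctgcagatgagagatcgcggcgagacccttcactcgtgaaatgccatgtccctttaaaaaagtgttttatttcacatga
T24H10.1 and clh-5, chrII:9099146-9099246: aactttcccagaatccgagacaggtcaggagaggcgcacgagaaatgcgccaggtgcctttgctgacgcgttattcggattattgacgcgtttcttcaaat

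Pooled signal, the strength that the peak caller assigned to a region, lay between 12.6 and 33.9 in the weak shared regions, and its median was 18.5. The highest was at rank 2944 with 33.9 and the lowest at rank 9998 with 12.6, next to 33.9 at rank 2940 above the range, 12.6 at rank 10001 below it, and 34.2 for the weakest thresholded peak. In the replicate 1 list their signal lay between 4.83 and 50.8, with 13.5 as its median. The highest of these was at hsp-12.3, a small heat shock protein, 207 bp from a thresholded summit. In the replicate 3 list it lay between 2.005 and 14.6, with 3.60 as its median. The scale of the signal differs between lists, so ranks give the better view. Their median rank among nuclear regions was 7942.5 in replicate 1 and 9594 in replicate 3, whose whole lists held 30000 and 24854 regions. Of the weak shared regions, 631, or 47.7%, ranked higher in replicate 3. Only 8 stood among the 2940 highest nuclear regions of replicate 1, whereas 261 did in replicate 3. Over the 1322 regions, pooled signal followed replicate 1 (Spearman's rho 0.87) far more than replicate 3 (rho 0.12), and the signals of the replicates had a rho of -0.10. Selection on pooled rank bears on these correlations, which are a description only.

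The pooled summit coincided to the base with that of replicate 1 in 564 regions, or 42.7%, and with that of replicate 3 in 27 regions, or 2.04%. The median distance was 2 bp to the replicate 1 summit and 35.5 bp to the replicate 3 summit. At the edge of the distance rule, 79 regions had their replicate 3 summit in the last 10 bp inside the limit, and 71 candidates had it in the next 10 bp outside. For replicate 1 the same counts were 23 and 20.

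**Figure D1:**
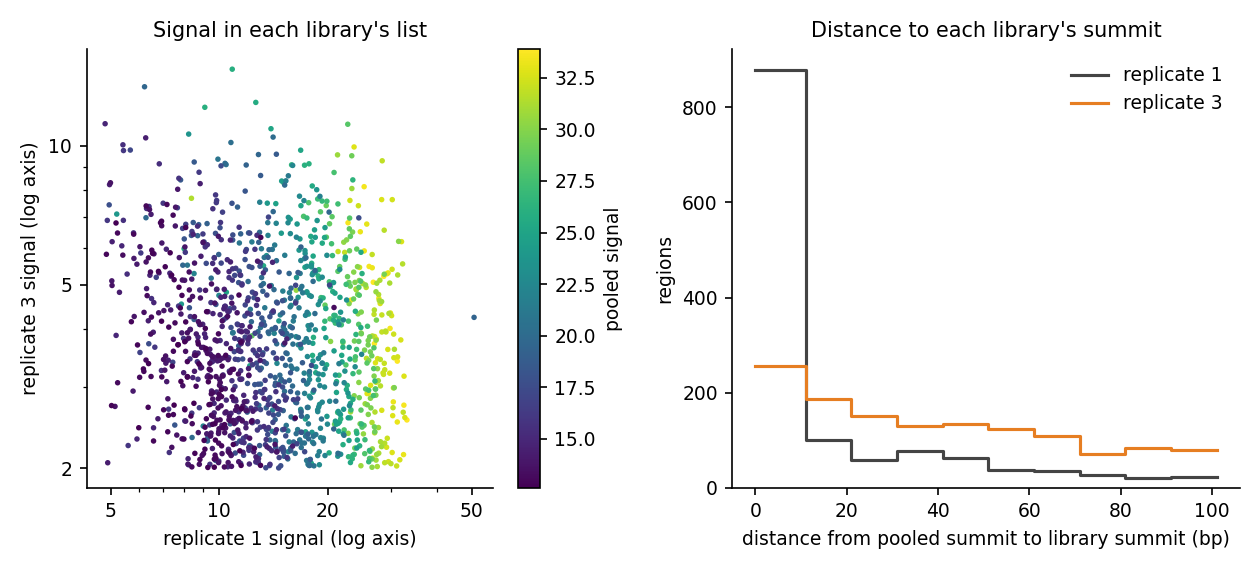
Left, signal of each of the 1322 weak shared regions in the replicate 1 list (x, log axis) and the replicate 3 list (y, log axis), coloured by pooled signal. Right, regions by distance in bp from the pooled summit to each library's summit. Colour changes along x rather than y, and replicate 1 summits crowd at the pooled summit while replicate 3 summits spread over the 100 bp that the rule allows.

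The label of regions found in both libraries therefore holds only in the sense of the lists, which include background by the submitters' own description. A q-value under 0.05 was given to 778 regions (58.9%) in replicate 1, to 815 (61.6%) in replicate 3, and to 464 (35.1%) in both. Positions within 100 bp of a replicate 3 summit made up 4.98% of the nuclear genome. Such a summit stood beside 21.8% of the 7060 candidates of these ranks, beside 18.2% of those ranked lower and beside 40.1% of nuclear thresholded peaks. Summits of both libraries stood beside 18.7%, 5.30% and 39.8% of these in turn. A thresholded summit lay within 500 bp of 46 weak shared regions (3.48%), against 2.91% of the other candidates of the same ranks. Of these 46, 33 stood 200 to 210 bp from it, and the closest at 199 bp. The same rule applied to the lists in build ce10 gave 1320 regions.

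WGATAR was more frequent under the weak shared summits than beside them. A match lay within 50 bp of the summit in 355 of 1322 regions, 26.9% (95% exact binomial interval 24.5 to 29.3), and in 21.1% of windows of the same length 500 bp to either side, a ratio of 1.27. In 285 regions the summit held a match and the left window did not, with 208 the other way round, and for the right window these counts were 269 and 194. The larger of the p-values against either side was 0.000606 (two-sided exact McNemar test). In bins of 50 bp, matches per region lay between 0.110 and 0.135 at more than 400 bp from the summit and reached 0.179 in the bin just before it. In the 694 regions at or below the median GC content the ratio was 1.49, and in the 628 above it 1.03 (exact McNemar p = 0.685), and the difference between these ratios was not tested. The mean GC content was 38.5% at the summits and 35.1% in the flanks, and its part in the counts was not tested.

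**Figure D2:**
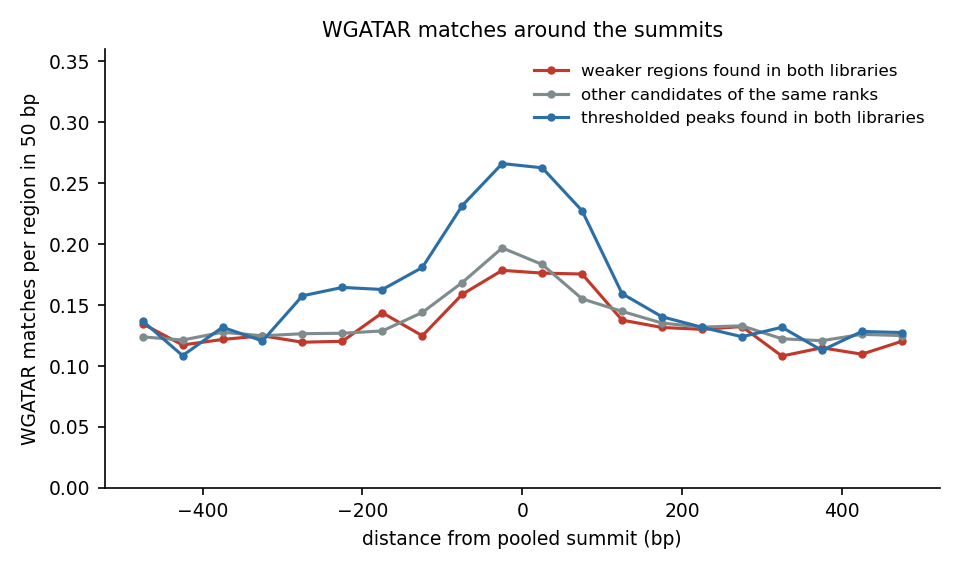
WGATAR matches per region in bins of 50 bp (y) by distance from the pooled summit in bp (x). The weak shared regions peak at 0.179 beside the summit, the other candidates of the same ranks at 0.197, and thresholded peaks found in both libraries reach 0.266.

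Within the same range of ranks, no difference in WGATAR was detected between shared regions and the rest. Ranks were not matched one by one, and the median pooled signal was 18.5 in the weak shared regions and 17.4 in the others. The share was 28.1% in the other candidates of the same ranks, an odds ratio of 0.941 (95% interval 0.820 to 1.08) for the weak shared regions (two-sided Fisher's exact test, adjusted p = 0.530 over 8 comparisons). The interval spans lower and slightly higher odds, so it does not show that the sets are alike. Against the shared thresholded peaks, of which 33.1% held a match, the odds ratio was 0.743 (0.623 to 0.886, Fisher's exact test, adjusted p = 0.00220). The call was lost with summits within 50 bp (0.848, Fisher's exact test, adjusted p = 0.425), with the ranks down to 6000 (0.839, adjusted p = 0.274) and with the motif sought within 100 bp (0.848, adjusted p = 0.118). Mean GC content was 44.4% at thresholded summits, and the odds ratio was 0.436 at or below the median GC and 0.888 above it (Fisher's exact test, adjusted p = 0.621), a difference that was not itself tested. Windows with 2 or more matches made up 5.90% of the weak shared regions, 6.69% of the others and 12.6% of the shared thresholded peaks.

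Among the weak shared regions the share of WGATAR was 31.5% (24.6 to 39.2) in the highest 706 of the 7060 ranks and 20.2% (13.2 to 28.7) in the lowest 706, and in the other candidates of these ranks it was 32.3% and 23.5%. It was 30.6% (26.4 to 35.02) in the 464 regions with a q-value under 0.05 in both libraries, and 31.4% (25.8 to 37.4) in the 261 regions among the 2940 highest of replicate 3. Where the replicate 3 summit lay within 10 bp of the pooled one the share was 30.7% (25.2 to 36.8), and where it lay 51 to 100 bp away it was 26.5% (22.5 to 30.7). All these intervals overlap one another, which is no test of a difference, and the fall with rank was not tested.

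Away from gene starts, WGATAR was less frequent in weak than in strong shared regions, with a wider gap on autosomes than on X. A gene-start window runs from 1000 bp before the 5′ end of a coding gene to 500 bp after it. Outside such windows 26.8% of weak shared summits (221 of 826) and 42.8% of shared thresholded summits (247 of 577) held WGATAR, and inside them 27.02% (134 of 496) and 23.5% (137 of 584). On autosomes the shares outside the windows were 25.6% (169 of 659) and 45.7% (191 of 418). On X they were 31.1% (24.2 to 38.8, 52 of 167) and 35.2% (27.8 to 43.2, 56 of 159). The difference between X and autosomes was not tested. The odds ratio of weak against thresholded regions was 0.488 outside the windows (Fisher's exact test, adjusted p = 3.67e-09) and 1.21 inside them (Fisher's exact test, adjusted p = 0.727). It was 2.47 times as high inside the windows as outside (logistic model, interaction, n = 2483 regions, adjusted p = 1.23e-06), a contrast that was added after the shares had been seen. Against the other candidates of the same ranks, with 28.5% outside and 27.3% inside, the same contrast was 1.07 (logistic model, n = 7060 regions, adjusted p = 0.610). In introns the shares were 25.7% of weak shared regions, 30.6% of the other candidates and 46.0% of shared thresholded peaks.

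**Figure D3:**
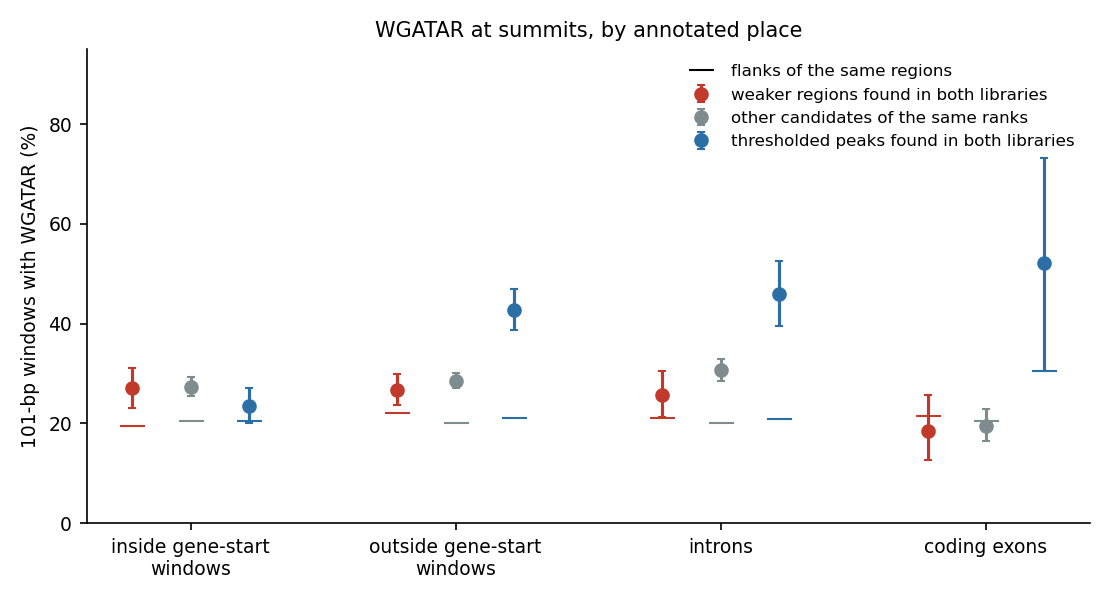
Share of summit windows with WGATAR (y, %) by annotated place (x), with points for summits, 95% exact binomial intervals, and dashes for the flanks of the same regions. The weak shared regions lie between 18.5% and 27.02% in the 4 places drawn, and the thresholded peaks found in both libraries range from 23.5% inside gene-start windows to 52.2% of 23 summits in coding exons.

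In a scan of all distinct 6-mers, both strands merged, 48 were more frequent at the weak shared summits than on both sides (2.31%) and 26 were less frequent (1.25%), by exact McNemar tests at an adjusted p under 0.05. GAGAGA led: it stood in 206 regions, 15.6% of summit windows against 6.20% of flanks (exact McNemar test, adjusted p = 2.74e-09). AGAGAC followed with 9.91% against 3.10%, and ACACAC had 8.62% against 3.37%. CTTATC, the reverse complement of GATAAG and so a core of the GATA motif, was the weakest of those named here, with 7.79% against 4.01% (adjusted p = 0.0206, exact McNemar test, rank 49 of all 6-mers by p). TGATAA had 13.9% against 10.1% and AGATAA 7.41% against 6.51%, and neither was called, nor were AGATAG and TGATAG. Words less frequent at summits included AAAATT, with 33.8% against 45.6%, and AAAAAT, with 39.3% against 50.8%.

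GAGAGA also led in the stronger peaks, at a larger ratio. GAGAGA had a ratio of summit to flank of 2.51 in the weak shared regions, 2.69 in the other candidates of the same ranks and 4.16 in the shared thresholded peaks. For ACGCAG these ratios were 2.71, 3.35 and 7.51, and for CTTATC 1.94, 2.09 and 4.03. Of the 48 words called higher, 47 were called higher in the other candidates too, among 351, and 41 in the shared thresholded peaks, among 314. The sets differ in size, so the numbers of calls are not comparable between them.

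Weak shared summits lay less often at gene starts and more often in introns than strong ones. In gene-start windows stood 496 of them, 37.5% (34.9 to 40.2), against 50.3% of shared thresholded peaks, an odds ratio of 0.593 (0.504 to 0.699, Fisher's exact test, adjusted p = 1.43e-09). In introns of coding genes stood 27.4% (24.99 to 29.9) against 20.2%, an odds ratio of 1.49 (1.23 to 1.80, Fisher's exact test, adjusted p = 0.000136). The intron odds ratio lost its call without chromosome I (1.25, Fisher's exact test, adjusted p = 0.108) and with the ranks down to 6000 (1.22, Fisher's exact test, adjusted p = 0.274). Coding exons held 11.4% of them (9.76 to 13.3) and 1.98% of shared thresholded peaks, and this pair of shares was not tested. The nuclear genome itself is 26.4% gene-start window, 32.5% intron and 24.6% coding exon, so the shares of weak shared summits were above those of the genome at gene starts and below them in introns and coding exons.

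Within the same range of ranks, again not matched one by one, no difference in place was detected between shared regions and the rest. The other candidates had 38.4% in gene-start windows (odds ratio 0.964, 0.850 to 1.09, Fisher's exact test, adjusted p = 0.654) and 28.6% in introns (odds ratio 0.943, 0.823 to 1.08, Fisher's exact test, adjusted p = 0.530). Rank went with place: 53.0% of the weak shared regions in the highest 706 ranks were in gene-start windows, and 29.8% of those in the lowest 706. Windows of genes on both strands held 6.05% of weak shared summits and 15.6% of shared thresholded summits.

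**Figure D4:**
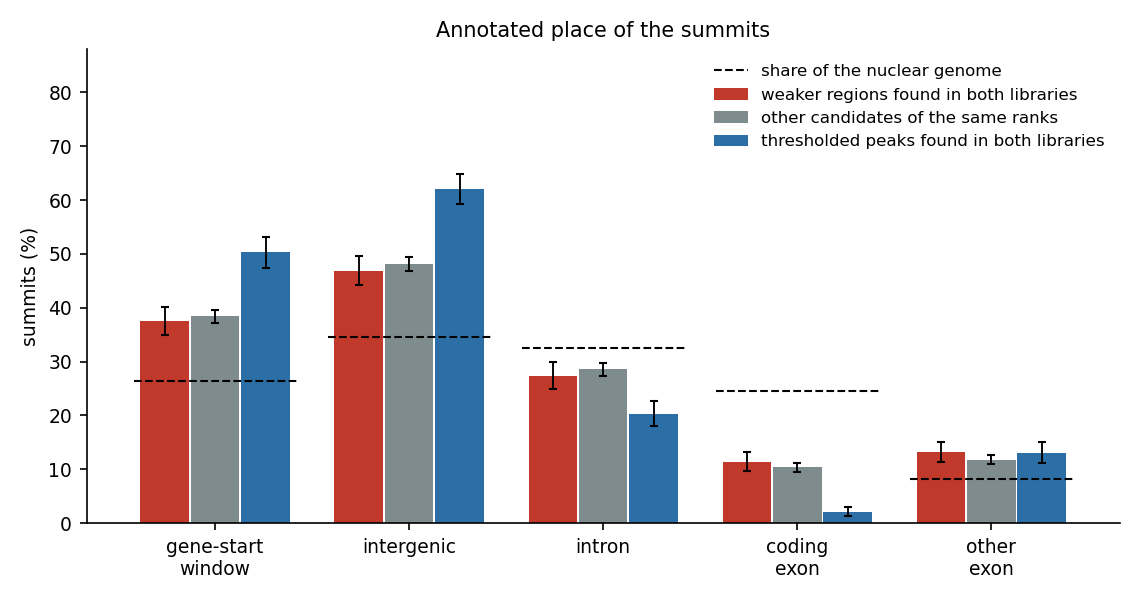
Share of summits (y, %) in each annotated place (x) for the 3 sets, with 95% exact binomial intervals and the share of the nuclear genome as dashed lines. A summit in a gene-start window is also counted in its exon, intron or intergenic class. The weak shared regions and the other candidates of their ranks have nearly level bars, and the thresholded peaks found in both libraries exceed them at gene starts with 50.3%.

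Chromosome I held 349 weak shared regions, 26.4% (24.04 to 28.9), with 15.03% of the nuclear sequence. At 23.2 regions per Mb it was the densest, and chromosome V, with 9.08, the sparsest. The other candidates of the same ranks had 20.5% on chromosome I and the shared thresholded peaks 17.8%. The replicate 3 list as a whole had 19.6% of its regions there, and 6.49% of the chromosome lay within 100 bp of a replicate 3 summit, both of which bear on membership, so no test was made. Of the candidates of these ranks on chromosome I, 22.9% were weak shared regions, against 16.8% to 18.6% on the other chromosomes. The densest of 103 bins of 1 Mb, from 7 to 8 Mb of chromosome I, held 58 against a median bin of 11, and it was also the densest bin of the other candidates, with 199, and of the thresholded peaks, with 82. The X chromosome held 247 weak shared regions, 18.7%, against 18.9% of the other candidates (odds ratio 0.988, 0.844 to 1.15, Fisher's exact test, adjusted p = 0.907) and 21.2% of shared thresholded peaks (odds ratio 0.855, 0.698 to 1.05, Fisher's exact test, adjusted p = 0.261).

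**Figure D5:**
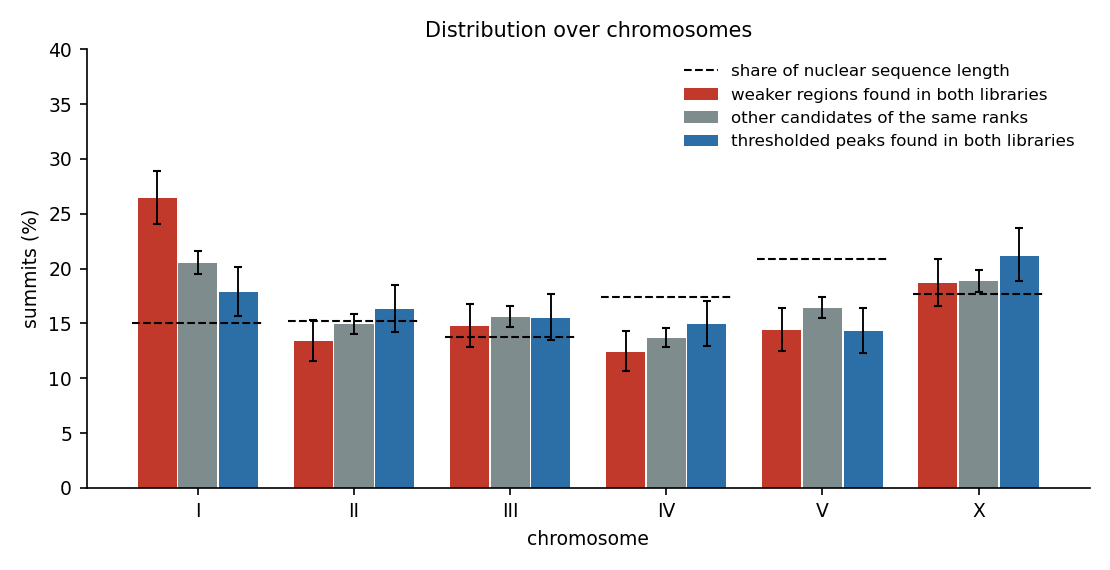
Share of summits (y, %) on each nuclear chromosome (x) for the 3 sets, with 95% exact binomial intervals and the share of nuclear sequence length as dashed lines. Chromosome I stands out for the weak shared regions, with 26.4% of summits on 15.03% of the sequence.

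The gene that held most weak shared summits in its body was lrp-1, on chromosome I from 7614176 to 7634143, which encodes a megalin-like receptor of the epidermis needed for molting. It held 6, with 12 other candidates and 0 thresholded peaks, and 1 of the 6 had WGATAR. A further 8 coding genes held 3 each, among them lit-1, a Nemo-like kinase of the Wnt pathway, and lin-59, a homologue of the histone methyltransferase ASH1.

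Of 19973 coding genes, 582 (2.91%) had a weak shared summit in their gene-start window, against 2468 (12.4%) with another candidate of the same ranks and 1878 (9.40%) with a thresholded peak. Of the 582 genes, 59 also had a thresholded peak in the window and 523 had none. The summits lay mostly upstream, in 477 of 588 pairs of a summit and a gene (81.1%), at a median of 187.5 bp upstream of the start. The 20 genes with the strongest such summits shared 15 regions with pooled signals of at least 32.7, 18 of the genes had the summit upstream, and 2 of the 15 regions held WGATAR. None of these 20 genes had a thresholded peak in its window. They include clc-2, a claudin-like membrane protein, whose summit 820 bp upstream had a pooled signal of 33.5 and ranked 4004 in replicate 1 and 573 in replicate 3, nas-29, an astacin metalloprotease, 252 bp upstream with 33.4, nuo-6, a subunit of mitochondrial complex I, 78 bp upstream with 33.3, and snx-3, a sorting nexin, 390 bp upstream with 33.2.

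The molting genes had 4 of 25 with a weak shared summit, next to the 2.91% of all coding genes, and 6 of 25 with a thresholded peak. These were apl-1, nhr-25, nas-36 and mlt-4, and 3 of the 4 regions held WGATAR. The apl-1 summit, shown above, had a pooled signal of 28.98 and ranked 4929 in replicate 1 and 18812 in replicate 3. The nhr-25 summit, 138 bp upstream of the start of this nuclear receptor of epidermal development, had 26.03 and ranked 4235 and 20026, and it was the only one of the 4 with a thresholded peak in the same window, of signal 40.2. The nas-36 summit, 150 bp upstream of the gene of this astacin protease of the molt, had 25.1 and ranked 11039 and 4318, with 2 matches of WGATAR. The mlt-4 summit had 24.96 and ranked 9048 and 11258, with 2 matches as well. The replicates thus ranked these regions differently, with apl-1 and nhr-25 far down the replicate 3 list and nas-36 higher there than in replicate 1.

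Of the 176 cuticle collagens, 4 had a weak shared summit, and this 2.27% is close to the share of all coding genes. The col-184 summit, 149 bp upstream, had a pooled signal of 28.7 and ranked 4761 in replicate 1 and 2844 in replicate 3. Those of col-80, 272 bp upstream in an intron of a neighbouring gene, of col-85, 175 bp inside the gene, and of col-101, 644 bp upstream, had 26.2, 19.1 and 12.8. Only the col-184 region held WGATAR, and only col-85 had a thresholded peak in its window as well. The collagen-processing genes had 0 of 13, with 3 of 13 holding a thresholded peak.

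Among 21 epidermal transcription factors, elt-3 itself and nhr-25 had a weak shared summit, neither with WGATAR, and 5 of the 21 had a thresholded peak. Among 21 genes of epidermal junctions and attachments, let-413 and dlg-1, a Discs-large scaffold of the same junctions, had one, both with WGATAR. The let-413 summit was the stronger, with a pooled signal of 32.8, rank 3220 in replicate 1 and rank 17646 in replicate 3. That of dlg-1, 584 bp upstream, had 18.3 and ranked 7446 and 13647. The defence peptide genes cnc-2, a caenacin, and nlp-27 made up 2 of 22, at signals of 24.1 and 14.9. The cnc-2 summit, 139 bp upstream, ranked 1471 in replicate 3 and 7095 in replicate 1 and held 2 matches of WGATAR. In contrast 8 of these 22 genes had a thresholded peak, nlp-27 among them.

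Genes of the signalling, stress, matrix, metabolic and timing lists were represented singly, in pairs or not at all. The Wnt list had 2 of 21, lin-17, a Frizzled receptor, at 25.4 and bar-1, a beta-catenin, at 13.6, the latter with 2 matches. The TGF-beta list for body size had 1 of 13, drag-1, a membrane co-receptor, at 19.3 with 1 match. The oxidative stress list had 2 of 16, the superoxide dismutase sod-1 at 21.4 with 1 match and the peroxiredoxin prdx-2 at 12.7. The hedgehog-related and patched-related list had 2 of 85, ptr-4 at 24.7 and grl-15 at 14.01, and the ZP-domain matrix list 1 of 41, cutl-20 at 17.04 with 1 match. The wound and infection list had 1 of 19, akir-1, an akirin, at 18.8. The heterochronic list, of genes that time larval development, had 1 of 12, lin-14, and 6 of 12 with a thresholded peak. The lin-14 summit, 739 bp upstream of this regulator of early larval fates, had a pooled signal of 19.3, rank 9327 in replicate 1 and rank 369 in replicate 3. Osmotic stress (15 genes), tyrosine catabolism (6) and insulin pathway (12) had 0, though 5, 4 and 2 of their genes had a thresholded peak.

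Counts in lists of other tissues and of housekeeping genes were also small, and their shares lay on both sides of the 2.91% of all coding genes. Ribosomal proteins had 3 of 78 (3.85%), rps-8 at 33.8, rpl-41.1 at 28.03 and rpl-1 at 21.6, whereas 60 of 78 had a thresholded peak. Nuclear hormone receptors had 9 of 274 (3.28%), led by nhr-184 at 29.7. The ceh homeobox genes had 2 of 63, ceh-20, a PBX-type cofactor, at 31.3 and ceh-7 at 23.3. The ceh-7 region held 4 matches of WGATAR and lay 787 bp upstream of ceh-7, but 208 bp upstream of prx-5. Chemoreceptors had 2 of 1302 (0.154%), and 22 of them (1.69%) had another candidate of the same ranks. Body wall muscle had 3 of 31 (9.68%), next to 9.52% of the epidermal transcription factors. The muscle genes were unc-45, a myosin chaperone, at 25.7, unc-60, an actin-depolymerising factor, at 22.2 and dys-1, dystrophin, at 14.1. Of the 31 muscle genes, 2 had a thresholded peak. Intestine had 2 of 31 (6.45%), fat-6, a fatty acid desaturase, at 20.8 and mtl-1, a metallothionein, at 12.6, and 0 with a thresholded peak. The fat-6 summit lay 273 bp upstream of fat-6, in a coding exon of another gene. FMRFamide-like neuropeptides had 1 of 31, flp-23 at 24.96. This summit, 336 bp upstream of flp-23, lay in a structural RNA gene (tRNA, snoRNA, snRNA or rRNA). Lists of neuronal genes (35), germline genes (44) and histones (50) had 0. The libraries are of whole larvae, and the cell type behind a region was not measured.

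Among genes of short RNAs, those of tRNAs most often had a weak shared summit, and most often another candidate of the same ranks as well. Of 612 tRNA genes, 49 (8.01%) had one within the same window about their start, 188 (30.7%) had another candidate of the same ranks and 156 (25.5%) a thresholded peak. For 346 snoRNA genes the numbers were 13, 64 and 117, for 129 snRNA genes 4, 15 and 27, and for 261 miRNA genes 5, 45 and 31. Over all coding genes the 3 shares were 2.91%, 12.4% and 9.40%. Windows of neighbouring RNA genes overlap, so 1 summit can count for several genes, and the differences between classes were not tested.

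The elt-3 locus held a cluster of weak shared regions, of other candidates and of thresholded peaks alike. In the 46.3 kb from 20 kb before to 20 kb after elt-3 (X, 13934874 to 13941216, plus strand) stood 7 weak shared regions, where the mean density over the nuclear genome gives 0.611, together with 17 other candidates of the same ranks and 9 thresholded peaks. The 1-Mb bin around it held 24 weak shared regions, 96 other candidates and 58 thresholded peaks, against bin medians of 11, 53 and 29. The transgene carries elt-3 as well, and DNA of the transgene and of the chromosomal locus cannot be told apart in these lists. The region 736 bp upstream of the elt-3 start had a pooled signal of 22.4 and ranked 7327 in replicate 1 and 10977 in replicate 3. The region 2909 bp upstream, in an annotated pseudogene, had a pooled signal of 25.98 and ranked 10465 in replicate 1 and 48 in replicate 3, the highest replicate 3 rank of all 1322. A further 2 lay within elt-3, 3760 bp from its start in an intron and 5585 bp from it in a coding exon, with 25.2 and 16.96. Of the 7, only the region 6773 bp downstream of the start held WGATAR.

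Regions high in replicate 3 and low in replicate 1 were also found elsewhere. Within skn-1, a stress-response transcription factor, a summit 2892 bp from the start had rank 69 in replicate 3 and 22486 in replicate 1, with 1 match of WGATAR. In the coding sequence of sams-1, an S-adenosylmethionine synthetase, a summit 541 bp from the start had ranks 92 and 8629. In an intron of myrf-2, a membrane-bound transcription factor, a summit 5082 bp from the start had ranks 203 and 22281 and 2 matches. The skn-1 summit lay 201 bp from a thresholded summit, as did those in F58H10.1 and F49E2.5, and 4 of the 12 highest in replicate 3 lay within 210 bp of one. The sams-1 and myrf-2 summits had their nearest thresholded summit 1179 and 8161 bp away.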

How the data were processed

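The 2 libraries were each deposited as a list of peaks and background that had served as input for the submitters' reproducibility step (IDR, irreproducible discovery rate), with a further such list for the pooled libraries and 1 list of thresholded peaks, in builds ce10 and ce11. Which aligner and peak caller were used is not given in the sources used here. Both the signal and the −log10 q-value of a deposited region were made by the submitters' peak caller, judged from the narrowPeak layout of the files. Signal scales differ between lists, so ranks were used across them. All per-sample columns could be mapped. Depth could not be derived from these values, and intervals cover the counting of regions only.

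Mitochondrial rows were left out before ranking. Gene models came from Ensembl release 115 (WBcel235, which is ce11) and sequence from RefSeq of the same assembly, and every region lay within its chromosome. Exonic positions were given precedence over introns. Shares were compared with Fisher's exact test, two-sided, and adjusted over 8 comparisons after Benjamini and Hochberg, summits with flanks by exact McNemar tests, and 6-mers by the same test with adjustment over all 6-mers. The interaction came from 2 logistic models, adjusted over both, and was added after the data were seen, as was leaving out chromosome I. Tests were checked on simulated data with planted motifs and shares. Weak shared regions, gene lists and tests were chosen with earlier results of these data known, so the 27 lists are described by counts alone. The genes named are the 20 with the strongest weak shared summit in their window, up to 3 per list or all where 5 or fewer had one, and elt-3. Genes described for their replicate 3 rank, the hosts of several summits and hsp-12.3 were chosen after their values were seen. Alternatives were other summit distances, ranks, motif widths, flanks, windows, summits and regions of high or low GC content, and 1 library's list at a time. Software was Python 3.11.15 with scipy 1.17.1 and statsmodels 0.14.6 for tests, pandas 2.3.3 and numpy 2.4.6 for tables, and matplotlib 3.10.9 for figures.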

Additional observations from a re-analysis of the deposited data

How the results depend on the processing

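Of 125 recomputed values, 95 kept their direction and their side of the threshold, or for counts stayed within 1.5 times the count reported. The ratio of WGATAR at weak shared summits to their flanks lay between 1.03 and 1.94 and lost its call only in regions of GC above the median, at 1.03. The odds ratio of WGATAR against shared thresholded peaks lost its call with summits within 50 bp (0.848), with the ranks down to 6000 (0.839), with the motif sought within 100 bp (0.848) and above the median GC (0.888), and it was 1.21 inside gene-start windows. That of introns against these peaks lost its call with the ranks down to 6000 (1.22) and without chromosome I (1.25), and that of X gained one with summits within 200 bp (0.800) and outside gene-start windows (0.666), with 1.099 inside them. The gene-start contrast with these peaks kept its call in every alternative run for it, at 0.537 to 0.733.

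The comparisons with the other candidates of the same ranks passed no test. Odds ratios for introns stayed between 0.897 and 0.986. Those for WGATAR crossed 1, at 1.01 with summits within 50 bp, 1.01 with the motif within 100 bp and 1.08 above the median GC. Those for X did so too, at 1.0002 without regions near thresholded summits, 1.07 inside gene-start windows and 1.09 without chromosome I. When the summit of either library was no longer required, the other library and the pool alone decided. The odds ratios against the same-rank candidates then ran from 0.918 to 1.24 for WGATAR, from 0.895 to 1.203 for gene starts and from 0.960 to 1.12 for X. The number of 6-mers called higher then ran from 58 to 412 and of coding genes from 647 to 2806, with 1536 and 6581 regions. The 6-mers numbered 16 with summits within 50 bp, 94 within 200 bp, 31 with flanks 1000 bp away, 80 when counted within 100 bp and 29 without chromosome I. Coding genes numbered 341 with summits within 50 bp, 881 within 200 bp and 335 for the ranks down to 6000. These settings change the number of regions, except for the flanks and the width of the 6-mer window, where the cause was not tested.

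No paired analysis was possible because both libraries belong to 1 group. No alternative can show how the regions would vary in further libraries, and without the depth the precision of a region's signal is unknown.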
